A study of Mus musculus with 18 samples.

Results

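The cadherins and the genes of the epithelial-mesenchymal transition (EMT) described here are 10 genes chosen by name: Cdh1, Cdh2, Epcam, Vim, Fn1, Snai1, Snai2, Zeb1, Zeb2 and Twist1. They are 10 of the 14804 genes that the 3 expression tables of the study hold between them. All 10 are in the tables of embryonic stem cells (ESCs) and trophoblast stem cells (TSCs), and 8 are in the table of extra-embryonic endoderm stem (XEN) cells, where Snai2 and Twist1 are not listed. Normoxia (20% oxygen) was compared with hypoxia (2% oxygen) lasting 2 or 7 days in mouse ESCs of the line E14, in TSCs and in XEN cells, with 2 biological replicates per condition and 18 libraries. The cells carried no transgene or deletion that the labels name, and all conditions of a cell type shared its medium. ESCs grew on gelatin without feeders in serum and LIF, TSCs grew on fibroblast feeders with FGF4 and heparin, and XEN cells grew on gelatin in medium conditioned in part by embryonic fibroblasts. Whether feeders were removed before the RNA of TSCs was taken is not given in the sources used here.

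In epithelia, E-cadherin (Cdh1) holds neighbouring cells together through adherens junctions. Its cytoplasmic tail binds p120-catenin and beta-catenin, of which beta-catenin links it through alpha-catenin to actin. During an EMT, as at the primitive streak of the embryo, zinc-finger repressors of the Snail and Zeb families and the basic helix-loop-helix factor Twist1 lower E-cadherin, while N-cadherin (Cdh2), the intermediate filament vimentin (Vim) and fibronectin (Fn1) rise. The epiblast and the trophectoderm are epithelial, whereas parietal endoderm, which XEN cells resemble, is a migratory, vimentin-rich cell type that arises from primitive endoderm by an EMT.

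Levels are given as RPM, the reads of a gene per 1000000 reads recovered from the deposited TPM of a library, with libraries named by condition and replicate number. RPM compares 1 gene between libraries. Levels of different genes are compared only as TPM recomputed with exon length (exon TPM), which assumes that the authors counted reads on exons, a point that is not stated. Between 35592640 and 75204025 reads were recovered per library over the genes of its table, so the full depth is not known. The lowest read number of any of the 10 genes in a library was 45, for Snai2 in ESCs. A gene was called differentially expressed (DE) where a limma fit to log2(RPM + 0.1) of all genes of a table gave more than a 1.5-fold difference with a Benjamini-Hochberg adjusted p of at most 0.1. Since 2 libraries were compared with 2, an exact permutation test of a single gene could not go below p = 0.333, and every p given here is from the fit across all genes. The cell type markers matched the labels. Pou5f1 lay between 647 and 849 RPM in ESCs, Eomes between 79.4 and 303 RPM in TSCs and Gata4 between 864 and 1068 RPM in XEN cells.

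The TSC libraries differed in the levels of fibroblast markers. Of 16 fibroblast markers, 15 were in the TSC table, and their sum was 4029 RPM in normoxia replicate 1 and 2384 RPM on day 2 replicate 2, but 780.4, 566, 1197 and 895 RPM in normoxia replicate 2, day 2 replicate 1 and day 7 replicates 1 and 2. The collagen gene Col1a1 alone went from 109.7 to 1129.9 RPM, and 1 of the 15 markers was at 0, in day 2 replicate 1. In ESCs 7 of the markers were in the table, at a sum of 20.6 to 49.3 RPM, and in XEN cells 4 were, at a sum of 13.1 to 53.2 RPM, with Col1a1, Col3a1, Dcn and Thy1 absent from the XEN table. In bulk RNA, fewer cells of a type and less RNA per cell cannot be told apart.

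The levels of the 10 genes in the 3 cell types are given as a description, since the tables were normalized separately. The epithelial genes were lowest in XEN cells. Cdh1 lay between 508 and 669 RPM in ESCs, between 519 and 1230.1 RPM in TSCs and between 13.4 and 63.0 RPM in XEN cells. The ESC and TSC ranges overlapped and both lay above every XEN library. Epcam, a cell adhesion molecule of epithelia, lay between 126 and 175.3 RPM in ESCs, between 174.8 and 409.7 RPM in TSCs and between 43.7 and 79.0 RPM in XEN cells, so that ESCs and TSCs were not separated. Fn1, the gene of an extracellular matrix protein that is grouped with the mesenchymal genes, had the same order as Cdh1: 633 to 1391 RPM in ESCs, 779.7 to 5218 RPM in TSCs and 15.4 to 137 RPM in XEN cells.

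Vim and Snai1 were ordered the other way. Vim lay between 98.3 and 287 RPM in ESCs and between 763 and 1555 RPM in XEN cells, with the TSC libraries spread from 238 to 2233 RPM across both. Snai1, the repressor of Cdh1 that acts at the primitive streak, lay between 6.46 and 11.6 RPM in ESCs, between 36.1 and 98.5 RPM in TSCs and between 99.9 and 215 RPM in XEN cells. Of the 8 genes in all 3 tables, only Snai1 had ranges that did not overlap between any of the cell types. Zeb2 lay between 1.26 and 2.20 RPM in ESCs, below every TSC library (6.88 to 34.3 RPM) and every XEN library (6.87 to 13.0 RPM), and the ranges of TSCs and XEN cells overlapped. Zeb1 overlapped between all cell types, at 9.28 to 17.8 RPM, 8.38 to 41.5 RPM and 7.93 to 22.5 RPM. Cdh2 lay between 5.46 and 11.98 RPM in ESCs, 12.04 and 94.2 RPM in TSCs and 3.82 and 15.8 RPM in XEN cells. Snai2 and Twist1 were at 0.742 to 1.87 RPM and 1.55 to 4.04 RPM in ESCs and 1.04 to 8.80 RPM and 2.89 to 8.80 RPM in TSCs.

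**Figure D1:**
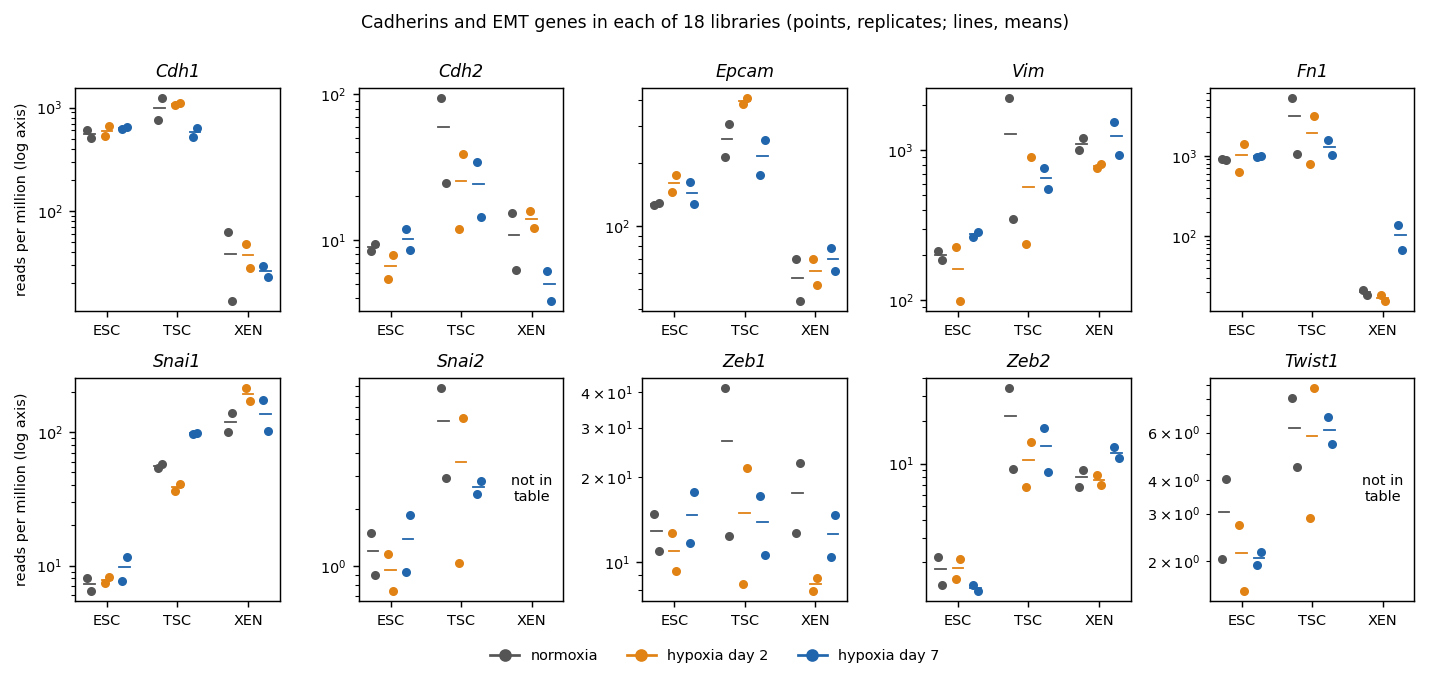
Level of each of the 10 genes in each of the 18 libraries, in RPM on a log axis that differs between panels, by cell type and condition (points, replicates 1 and 2 from left to right; lines, means). Cdh1, Epcam and Fn1 are lowest in XEN cells, Snai1 is lowest in ESCs and highest in XEN cells, and the 2 replicates of normoxic TSCs lie far apart for Vim, Fn1, Cdh2, Zeb1 and Zeb2.

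Per exon length, E-cadherin exceeded N-cadherin in all 18 libraries. The ratio of Cdh1 to Cdh2 in exon TPM lay between 91.5 and 169 in ESCs, between 14.2 and 154 in TSCs and between 3.81 and 10.6 in XEN cells. The lowest TSC value, 14.2, was that of normoxia replicate 1, which had the highest sum of fibroblast markers. The ratio of Snai1 to Cdh1 in exon TPM showed the opposite order and no overlap between cell types, with 0.0345 to 0.0509 in ESCs, 0.0974 to 0.530 in TSCs and 4.47 to 29.1 in XEN cells. Within TSCs it was higher on day 7, at 0.530 and 0.439, than in the other 4 libraries, which reached 0.200.

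**Figure D2:**
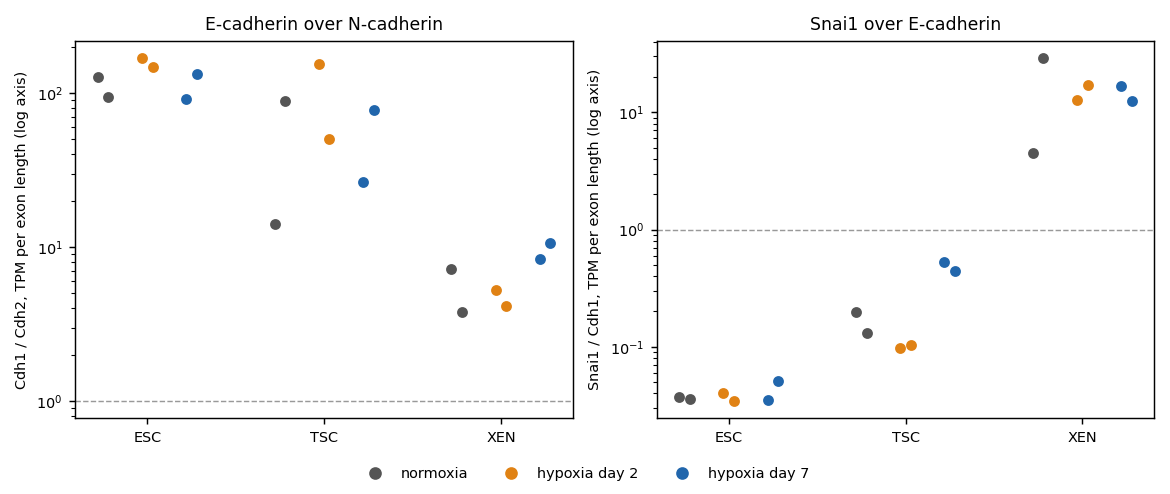
Ratio of Cdh1 to Cdh2 (left) and of Snai1 to Cdh1 (right) in each of the 18 libraries, in TPM per exon length on log axes, with the dashed line at a ratio of 1 (points, libraries; colours, conditions). E-cadherin exceeds N-cadherin in all libraries, and Snai1 exceeds E-cadherin in XEN libraries, at 4.47 or more.

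Among the 10899 genes in all 3 tables, those whose log2 levels followed Cdh1 most closely over the 18 libraries were Grb10 (Pearson r = 0.98), an imprinted adaptor of growth factor receptors, Ccdc136 (0.98), Bspry (0.98), Tpd52 (0.98) and Bcl2l11 (0.98), which encodes a pro-apoptotic protein. Grb10 lay between 165 and 418 RPM in ESCs, between 376 and 1151 RPM in TSCs and under 0.481 RPM in XEN cells. Closest to Vim were Disp1 (0.95), which acts in the release of hedgehog ligands, Snx24 (0.91), Emc3 (0.91), Flrt2 (0.91) and Aga (0.91). With Cdh1, the r of the members in all 3 tables was 0.91 for Epcam, 0.91 for Fn1, 0.45 for Cdh2, 0.13 for Zeb1, -0.25 for Zeb2, -0.55 for Vim and -0.65 for Snai1. The 18 points fall into 3 cell types and share the normalization of each table, so these values do not separate the order of the cell types from changes within them.

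To ask whether hypoxia moved these genes in ESCs, day 2 and day 7 were compared with normoxia and with each other. None of the 10 genes was DE in ESCs in any of these comparisons. Of all genes in the table, 0.0295% were DE on day 2 against normoxia, 1.13% on day 7 against normoxia and 0.169% on day 7 against day 2. Among the 10 genes, p was under 0.05 before adjustment for 0, 0 and 2 of them in these comparisons, and the smallest adjusted p was 0.815, 0.696 and 0.655. Of the 13578 genes in the table, p was under 0.05 before adjustment for 841, 1277 and 673.

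Cdh1 was nearly level in ESCs, at 606 and 508 RPM in normoxia, 524 and 669 RPM on day 2 and 621 and 645 RPM on day 7. Its log2 fold change on day 7 against normoxia was 0.19 ± 0.15 (SE, adjusted p = 0.801). Epcam was at 126 and 129.7 RPM in normoxia, 145 and 175 RPM on day 2 and 162 and 127 RPM on day 7. Both day 2 libraries lay above both normoxic ones, with a log2 fold change of 0.32 ± 0.15 (adjusted p = 0.815). Cdh2 was at 8.45 and 9.42 RPM, then 5.46 and 7.96 RPM, then 11.98 and 8.58 RPM in the same order. It was lowest in the day 2 libraries, and day 7 differed from day 2 by 0.61 ± 0.25 on the log2 scale (adjusted p = 0.924).

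Of the mesenchymal members in ESCs, Vim was at 214 and 186 RPM in normoxia, 226 and 98.3 RPM on day 2 and 264 and 287 RPM on day 7. The day 7 libraries lay above the other 4, at a log2 fold change of 0.46 ± 0.29 against normoxia (adjusted p = 0.696) and 0.89 ± 0.29 against day 2 (adjusted p = 0.655). Fn1 was at 907 and 897 RPM, then 633 and 1391 RPM, then 975 and 999 RPM. Vim and Fn1 thus split the 2 day 2 replicates in opposite directions, Vim 2.29-fold higher in replicate 1 and Fn1 2.20-fold higher in replicate 2. Leaving out either day 2 library left 1 library for day 2, which was assumed to vary like the other groups. Without replicate 1, the log2 fold change of Vim on day 7 against day 2 was 1.48. Without replicate 2, the value of Vim on day 7 against day 2 was 0.29.

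The transcription factors lay between 0.742 and 17.8 RPM in ESCs. Snai1 was at 8.05 and 6.46 RPM in normoxia, 7.45 and 8.17 RPM on day 2 and 7.71 and 11.6 RPM on day 7, and its log2 fold change on day 7 was 0.39 ± 0.25 (adjusted p = 0.709). Its highest library was a day 7 library, and the groups overlapped. Zeb1 ranged from 9.28 to 17.8 RPM, Zeb2 from 1.26 to 2.20 RPM, Snai2 from 0.742 to 1.87 RPM and Twist1 from 1.55 to 4.04 RPM, with 50 to 132 reads per library for Zeb2 and 45 to 74 for Snai2. Among all 10 genes the libraries did not overlap for 2 on day 2 against normoxia, 3 on day 7 against normoxia and 3 on day 7 against day 2. Over the whole table that share was 34.2%, 45.1% and 25.5%.

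The ESC table held 17 of 19 listed partners of cadherins at the junction, of which 0 were DE in the 3 comparisons. Their median log2 fold change on day 7 against normoxia was 0.09. The catenin genes Ctnna1, Ctnnb1 and Ctnnd1 had values of 0.15, 0.09 and -0.09 in that comparison, and P-cadherin (Cdh3) 0.35 ± 0.20 (adjusted p = 0.673). Of 30 other epithelial genes 0 were DE, and their median log2 fold change on day 7 was 0.22 against 0.03 for all genes. Of 28 other mesenchymal genes, 5 rose on day 7 against normoxia and 3 on day 7 against day 2, with 0 falling. Of all genes, 1.07% and 0.169% rose in these comparisons, and 0.0663% and 0% fell. The median of the list on day 7 against normoxia was 0.49. Col1a1, a fibrillar collagen gene, was at 2.22 and 2.29 RPM in normoxia and 21.6 and 8.85 RPM on day 7 (log2 fold change 2.56 ± 0.38, adjusted p = 0.0179). Col1a2, its partner chain, rose by 2.31 ± 0.46 on the log2 scale (adjusted p = 0.0552) and the smooth muscle actin gene Acta2 by 1.75 ± 0.32 (adjusted p = 0.0409). Both collagen genes are also on the list of fibroblast markers, whose sum was 49.3 and 32.1 RPM on day 7 and 20.6 to 29.8 RPM in the other ESC libraries, and the part of other cells in this was not tested. Of 16 other EMT transcription factors and 15 genes of TGF-beta signalling in the table, 0 were DE, with medians of 0.04 and 0.08 on day 7 against normoxia. Thbs1, an activator of latent TGF-beta, was at 14.2 and 11.1 RPM in normoxia and 46.6 and 23.6 RPM on day 7 (1.39 ± 0.33, adjusted p = 0.116).

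In TSCs, Snai1 and the epithelial members Cdh1 and Epcam differed between day 7 and day 2 of hypoxia. On day 7 against day 2, Snai1 rose by 1.35 ± 0.18 on the log2 scale (2.54-fold, adjusted p = 0.0131), while Cdh1 fell by 0.91 ± 0.28 (adjusted p = 0.0901) and Epcam fell by 0.90 ± 0.26 (adjusted p = 0.0807). These were 3 of the 10 genes, in a comparison in which 14.4% of all genes were DE, 460 of them higher and 1491 lower on day 7. With median-ratio scaling 725 of 1743 DE genes were higher. The median of all genes was -0.13 in this comparison, and relative to it the values were 1.47 for Snai1, -0.78 for Cdh1 and -0.77 for Epcam.

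Snai1 was at 53.7 and 57.5 RPM in normoxia, 36.1 and 41.0 RPM on day 2 and 97.5 and 98.5 RPM on day 7. The 3 conditions did not overlap, with the lowest level on day 2 and the highest on day 7. Against normoxia its log2 fold change was -0.53 ± 0.18 on day 2 (adjusted p = 0.306) and 0.82 ± 0.18 on day 7 (adjusted p = 0.168), neither of which passed the threshold. Snai1 is encoded at chr2:167538195-167542814 on the plus strand of GRCm38, the assembly also called mm10.

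Cdh1 was at 758 and 1230.1 RPM in normoxia, 1048 and 1109.6 RPM on day 2 and 519 and 633 RPM on day 7. Both day 7 libraries lay below the other 4, and the log2 fold change on day 7 against normoxia was -0.75 ± 0.28 (adjusted p = 0.436). Epcam was at 214 and 308 RPM in normoxia, 385 and 409.7 RPM on day 2 and 175 and 259 RPM on day 7. The day 2 libraries were the highest, at a log2 fold change of 0.63 ± 0.26 against normoxia (adjusted p = 0.361), and day 7 overlapped with normoxia. Cdh1 lies at chr8:106603351-106670246 and Epcam at chr17:87635979-87651129, both on the plus strand.

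The promoters of Epcam and Snai1 are shown because these genes moved in opposite directions and because Snail and Zeb proteins bind the E-box CAGGTG. The 250 bases before the start site (RefSeq, GRCm38.p6, plus strand) are in lower case, with each CAGGTG or its reverse complement CACCTG in capitals.
Epcam, chr17:87635729-87635978: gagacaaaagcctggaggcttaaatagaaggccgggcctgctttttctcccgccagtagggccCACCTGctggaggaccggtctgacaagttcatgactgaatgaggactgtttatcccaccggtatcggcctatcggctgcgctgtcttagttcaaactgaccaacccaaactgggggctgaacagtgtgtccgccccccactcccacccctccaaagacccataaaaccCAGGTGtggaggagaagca
Snai1, chr2:167537945-167538194: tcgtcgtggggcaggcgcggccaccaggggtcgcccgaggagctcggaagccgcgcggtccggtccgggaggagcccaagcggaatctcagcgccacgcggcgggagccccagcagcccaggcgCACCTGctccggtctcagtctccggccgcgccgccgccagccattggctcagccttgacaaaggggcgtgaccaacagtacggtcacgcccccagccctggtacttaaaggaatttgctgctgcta
Epcam held 2 such E-boxes, which began 187 and 19 bases before the start site, and Snai1 held 1, which began 126 bases before it. Of 32851 promoters of the same length, 17.2% held at least 1 and 2.06% held 2 or more. Of the core of the hypoxia response element, which HIF proteins bind, the form ACGTG or its reverse complement CACGT was in neither of these windows. The form GCGTG was not counted, and it occurs in the Snai1 window. Among the 5 members with an entry in the promoter table (Epcam, Vim, Snai1, Zeb2 and Twist1), ACGTG or CACGT was found in Twist1. It began 98 bases before the start site, and 16.6% of all promoters held ACGTG or CACGT. The E-box marked above was absent from the windows of Vim, Zeb2 and Twist1. Cdh1 had no entry among the promoters. A match of letters is a description and not evidence of binding.

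Leaving out any of the 4 libraries compared ended the calls of Cdh1 (log2 fold changes from -1.05 to -0.77) and Epcam (from -1.18 to -0.62), with adjusted p from 0.176 to 0.323. Leaving out day 2 replicate 1 or either day 7 replicate ended that of Snai1, at log2 fold changes of 1.26, 1.35 and 1.34 (adjusted p = 0.107, 0.105 and 0.143). With median-ratio scaling Snai1 was DE, and Cdh1 (-0.77, adjusted p = 0.144) and Epcam (-0.76, adjusted p = 0.130) were not. Markers of the TSC state moved in the same comparison. Of 9 TSC markers 6 fell and 1 rose on day 7 against day 2, where 11% of all genes fell and 3.4% rose. The trophoblast factor Cdx2 was at 45.5 and 89.2 RPM on day 2 and 21.5 and 21.9 RPM on day 7, and Elf5 went from 259 and 273 RPM to 60.9 and 55.7 RPM. Keratin 8 (Krt8), in contrast, was at 1802 and 2286 RPM on day 2 and 4748 and 5767 RPM on day 7. Their part in the result was not tested.

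The other 7 members differed more between the replicates of normoxia and of day 2 than the conditions did, and none of them was DE in the fit of all 6 libraries. Vim was at 2233 and 349 RPM in normoxia, 238 and 901 RPM on day 2 and 758 and 552 RPM on day 7. It placed the 6 libraries in the same order as the sum of fibroblast markers did. Fn1 was at 5218 and 1052 RPM, then 779.7 and 3096 RPM, then 1592 and 1009.7 RPM. In normoxia, replicate 1 exceeded replicate 2 5.16-fold for the marker sum, 6.40-fold for Vim and 4.96-fold for Fn1. On day 2, replicate 2 exceeded replicate 1 4.21-fold for the marker sum, 3.79-fold for Vim and 3.97-fold for Fn1.

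The remaining mesenchymal members split the replicates in the same way. Cdh2 was at 94.2 and 24.5 RPM in normoxia, 12.04 and 38.7 RPM on day 2 and 34.4 and 14.5 RPM on day 7. Zeb1 was at 41.5 and 12.4 RPM, then 8.38 and 21.6 RPM, then 17.2 and 10.6 RPM. Zeb2 was at 34.3 and 9.21 RPM, then 6.88 and 14.3 RPM, then 17.98 and 8.70 RPM. In each, normoxia replicate 1 was the highest library and day 2 replicate 1 the lowest. Snai2 was at 8.80 and 2.93 RPM, then 1.04 and 6.09 RPM, then 2.42 and 2.84 RPM, and Twist1 at 8.06 and 4.47 RPM, then 2.89 and 8.80 RPM, then 6.85 and 5.44 RPM. By contrast, normoxia replicate 1 stood to replicate 2 at a ratio of 0.935 for Snai1, 0.616 for Cdh1 and 0.695 for Epcam, and day 2 replicate 2 stood to replicate 1 at 1.13, 1.06 and 1.06. The part of feeder RNA in the levels of the mesenchymal members was not tested.

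**Figure D3:**
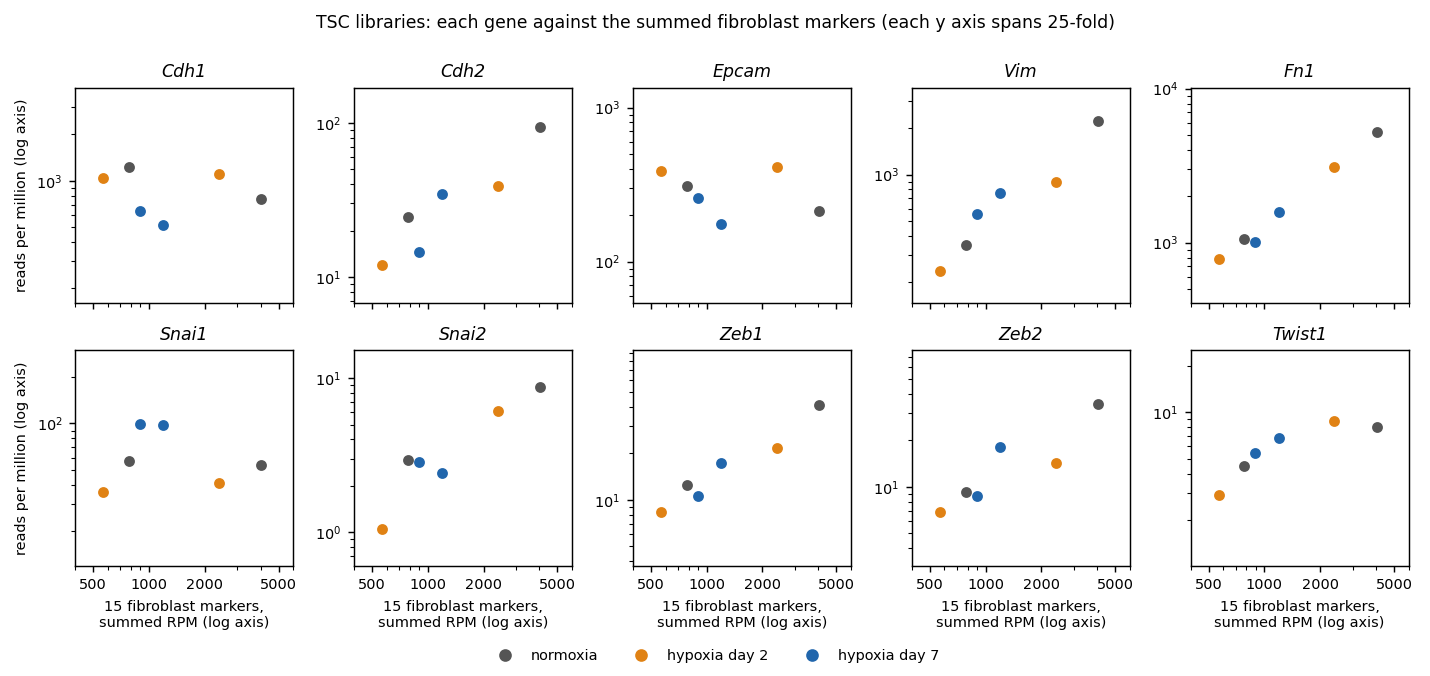
Level of each gene in the 6 TSC libraries (vertical, RPM) against the summed level of 15 fibroblast markers (horizontal, RPM), both on log axes, with colours for the conditions. Vim, Fn1, Cdh2, Snai2, Zeb1, Zeb2 and Twist1 are high where the markers are high, whereas Snai1 is highest in the 2 day 7 libraries, at 97.5 and 98.5 RPM.

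A fit without normoxia replicate 1 and day 2 replicate 2, chosen after their values had been seen, left 1 library each for normoxia and day 2, which were assumed to vary like the pair of day 7. On day 7 against day 2 it called 8 of the 10 genes, where it called 27.7% of all genes. Snai1 (1.44 ± 0.32, adjusted p = 0.000127), Cdh1 (-0.87 ± 0.35, adjusted p = 0.0553) and Epcam (-0.86 ± 0.32, adjusted p = 0.0404) were among them, beside Vim (1.44 ± 0.33, adjusted p = 0.000225), Cdh2, Snai2, Zeb2 and Twist1. For these last 5 genes the day 2 library that remained was the lowest of the 6 TSC libraries, so the choice of libraries fixed their direction. Fn1 (0.70 ± 0.36, adjusted p = 0.1504) and Zeb1 (0.68 ± 0.37, adjusted p = 0.185) were not called. The log2 fold change of Cdh1 on day 7 against normoxia was -1.10 in this fit, beside -0.75 in the fit of all 6 libraries. Of the 30 fold changes of members in TSCs, 6 turned direction in this fit and none of these was called. On day 7 against normoxia, Vim went from -0.45 to 0.89, Fn1 from -0.89 to 0.27, Zeb1 from -0.75 to 0.12 and Zeb2 from -0.51 to 0.44. On day 7 against day 2 Fn1 went from -0.29 to 0.70, and on day 2 against normoxia Cdh1 went from 0.16 to -0.23.

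On day 2 and day 7 against normoxia, 0 of the 10 genes were DE in TSCs, beside 0.2% and 0.399% of all genes. Before adjustment, p was under 0.05 for 2 of the 10 in each of these comparisons, Epcam and Snai1 on day 2 and Cdh1 and Snai1 on day 7. The same held for 1802 and 1272 of the 13518 genes in the table. The libraries did not overlap for 2 of the 10 genes on day 2 against normoxia, 3 on day 7 against normoxia and 3 on day 7 against day 2, where 46.7%, 38.7% and 58.3% of all genes did not overlap.

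All 19 junction genes were in the TSC table, and 1 was DE, on day 7 against day 2, where 14.4% of all genes were DE. This was Actn1, which encodes an alpha-actinin that crosslinks actin, at 532 and 861 RPM on day 2 and 1464 and 1385 RPM on day 7 (log2 fold change 1.07 ± 0.28, adjusted p = 0.0597). The median of the list was 0.25 against -0.13 for all genes. In that comparison Ctnna1, Ctnnb1 and Ctnnd1 had log2 fold changes of 0.05, 0.15 and 0.25 (adjusted p = 0.918, 0.695 and 0.527), and Cdh3 0.52 ± 0.31 (adjusted p = 0.325). Cdh5, the cadherin of endothelium, was at 32.6 and 33.9 RPM in normoxia and 176 and 159.7 RPM on day 7, a log2 fold change of 2.33 ± 0.60 that was not DE (adjusted p = 0.242). 

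The other epithelial genes of TSCs moved in both directions on day 7 against day 2, with 2 of 29 higher and 2 lower by the test. Of all genes, 3.4% were higher and 11% lower in this comparison. The desmosomal genes Pkp3 (1.36 ± 0.30, adjusted p = 0.0412) and Dsp (0.90 ± 0.28, adjusted p = 0.0920) rose, while Grhl3, a transcription factor of epithelia, fell from 55.3 and 39.3 RPM to 11.4 and 7.97 RPM (-2.28 ± 0.29, adjusted p = 0.0114) and the claudin gene Cldn6 fell by 1.21 ± 0.24 (adjusted p = 0.0333). The median of the list was -0.04 against -0.13 for all genes. Of 30 other mesenchymal genes, Lgals1, which encodes a galectin (1.42 ± 0.27, adjusted p = 0.0289), and the tropomyosin gene Tpm2 (1.02 ± 0.25, adjusted p = 0.0521) rose and the matrix gene Fbln1 fell by 1.16 ± 0.25 (adjusted p = 0.0378). These calls stand beside the same shares of all genes, and the median of the list was -0.17.

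Of 21 other transcription factors linked to EMT, all in the TSC table, 4 fell and 1 rose on day 7 against day 2, where 11% of all genes fell and 3.4% rose. Id2, an inhibitor of basic helix-loop-helix factors, was at 474 and 199.3 RPM on day 2 and 60.2 and 73.5 RPM on day 7 (-2.21 ± 0.37, adjusted p = 0.0235). Etv5, an ETS factor downstream of FGF signalling, was at 88.4 and 81.5 RPM and then 27.4 and 20.7 RPM (-1.83 ± 0.21, adjusted p = 0.00952), and it also fell against normoxia, by 1.322 ± 0.214 (adjusted p = 0.0958). Snai3, the family member of Snai1, went the other way from it, with 17.1 and 16.9 RPM on day 2 and 6.21 and 8.23 RPM on day 7 (-1.24 ± 0.26, adjusted p = 0.0366). Sox9 rose by 1.03 ± 0.26 (adjusted p = 0.0582), and the median of the list was -0.34. In TGF-beta signalling, which induces Snai1 in many cells, 4 of 16 genes fell and 0 rose, beside the same shares of all genes. Among them were the signal transducer Smad3 (-0.95 ± 0.20, adjusted p = 0.0361), the inhibitor Smad6 (-1.85 ± 0.29, adjusted p = 0.0202) and the pseudoreceptor Bambi (-1.16 ± 0.29, adjusted p = 0.0566). The median of this list was -0.25 against -0.13 for all genes.

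On day 2 against normoxia, 0 genes of these lists were DE in TSCs. The largest differences among genes whose libraries did not overlap included that of Sox9, at 28.0 and 32.2 RPM in normoxia and 14.6 and 9.95 RPM on day 2 (-1.31 ± 0.26, adjusted p = 0.176).

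**Figure D4:**
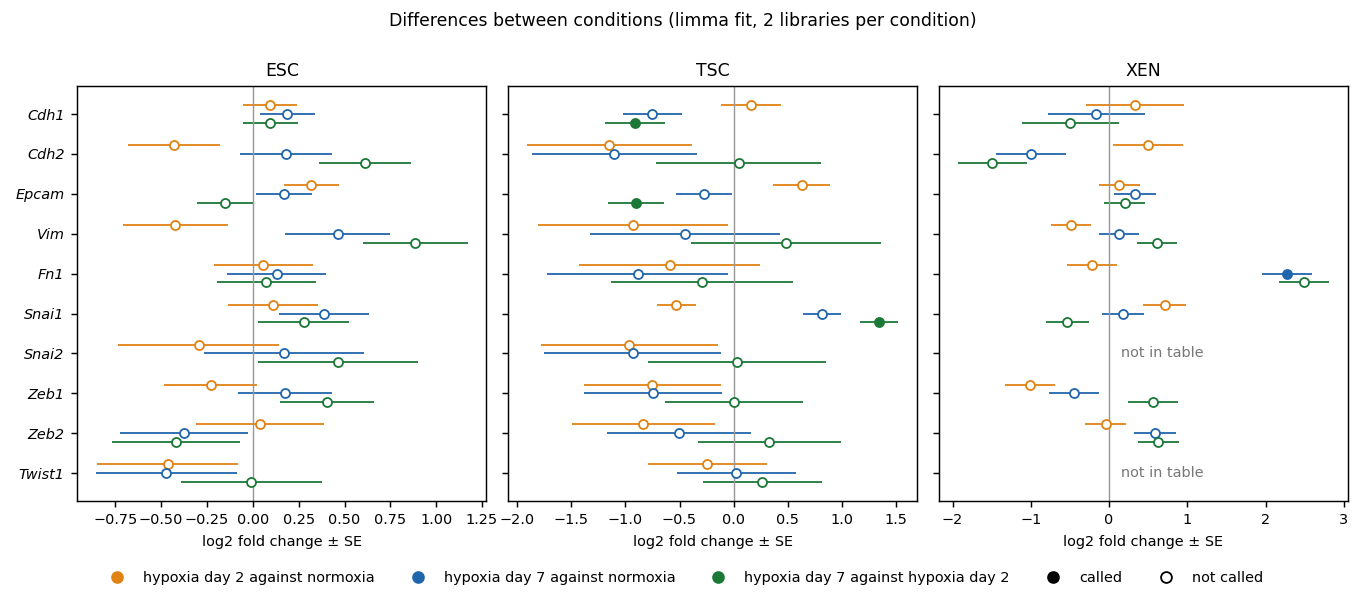
Log2 fold change with its standard error for each of the 10 genes in ESCs, TSCs and XEN cells (horizontal axes differ in range) for the 3 comparisons of conditions. Filled points passed the DE threshold, which were Snai1, Cdh1 and Epcam on day 7 against day 2 in TSCs and Fn1 on day 7 against normoxia in XEN cells.

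In XEN cells, fibronectin was the member called DE, on day 7 of hypoxia against normoxia. Fn1 was at 21.2 and 18.4 RPM in normoxia, 18.6 and 15.4 RPM on day 2 and 137 and 67.1 RPM on day 7. Both day 7 libraries lay above the other 4, and they differed from each other 2.04-fold. Fn1 rose by 2.27 ± 0.32 on the log2 scale on day 7 against normoxia (5.14-fold, adjusted p = 0.0857), which was 1 of 8 members in a comparison that called 0.191% of all genes. Against day 2 the log2 fold change was 2.49 ± 0.32, which did not pass the threshold (adjusted p = 0.111), in a comparison that called 0.0347% of all genes. With only the 4 libraries compared it passed (adjusted p = 0.0117). Fn1 lies at chr1:71585520-71653200 on the minus strand, and 292 of its 11685 exonic bases are shared with Apol7d on the opposite strand, so that reads of the pair could be told apart only if strand was used in counting, which is not stated. The same holds for 198 exonic bases that Zeb1 shares with Gm10125 and 653 that Zeb2 shares with Zeb2os.

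The call of Fn1 against normoxia ended with deposited TPM (2.14, adjusted p = 0.126), without the mean-variance trend (adjusted p = 0.164), with voom (2.30, adjusted p = 0.147) and with only the 4 libraries compared (adjusted p = 0.344). It also ended without day 7 replicate 1 (1.76, adjusted p = 0.295), without day 2 replicate 1 (adjusted p = 0.345) and without day 2 replicate 2 (adjusted p = 0.362). With each of the 6 libraries omitted, the value against normoxia stayed between 1.76 and 2.78. Without normoxia replicate 2, the log2 fold change of Cdh2 on day 7 against normoxia was -1.64, and without normoxia replicate 1 it was -0.35.

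Of the 16 fibroblast markers 4 were in the XEN table. Their median log2 fold change on day 7 against normoxia was 1.08 beside -0.03 for all genes, and 0 were DE. Both day 7 libraries were higher than both normoxic ones for 3 of the 4, and for 2039 of the 11538 genes in the table. Tcf21 was at 0.0916 and 0.902 RPM in normoxia and 1.27 and 2.16 RPM on day 7 (2.01 ± 0.76, adjusted p = 0.481), and Pdgfrb at 0.366 and 0.305 RPM and then 1.25 and 0.73 RPM (1.28 ± 0.46, adjusted p = 0.457). The sum of the 4 markers was 13.1 and 45.5 RPM on day 7 and 34.5 to 53.2 RPM in the other libraries. Their part in the levels of Fn1 and Mmp2 was not tested.

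No other member was DE in XEN cells. Cdh2 was at 15.4 and 6.22 RPM in normoxia, 15.8 and 12.1 RPM on day 2 and 6.19 and 3.82 RPM on day 7, and its log2 fold change was -0.995 ± 0.446 on day 7 against normoxia (adjusted p = 0.558) and -1.49 ± 0.45 on day 7 against day 2 (adjusted p = 0.377). Day 7 was below both other conditions, by as little as 6.19 to 6.22 RPM between neighbouring libraries. Cdh1 was at 63.0 and 13.4 RPM in normoxia, 47.5 and 28.3 RPM on day 2 and 29.2 and 23.1 RPM on day 7. The normoxic replicates differed 4.70-fold, more than any 2 conditions did. Epcam was at 69.4 and 43.7 RPM, then 69.3 and 52.4 RPM, then 79.0 and 60.9 RPM, and all its conditions overlapped.

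Vim was high throughout XEN cells, at 1000.2 and 1219 RPM in normoxia, 763 and 812 RPM on day 2 and 1555 and 930.4 RPM on day 7. Its day 2 libraries were the lowest, at -0.49 ± 0.26 against normoxia (adjusted p = 0.660). Snai1 was at 99.9 and 138 RPM in normoxia, 215 and 173 RPM on day 2 and 173 and 102 RPM on day 7. Day 2 lay above normoxia by 0.71 ± 0.27 on the log2 scale (adjusted p = 0.559), and day 7 overlapped with normoxia. Zeb1 was at 12.7 and 22.5 RPM, then 7.93 and 8.79 RPM, then 10.4 and 14.7 RPM, and Zeb2 at 6.87 and 9.08 RPM, then 8.36 and 7.01 RPM, then 13.0 and 10.9 RPM. Zeb1 was lowest on day 2 (-1.01 ± 0.32, adjusted p = 0.525), and Zeb2 was highest on day 7 (0.58 ± 0.27, adjusted p = 0.566).

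On day 2 against normoxia 0 of the 8 members were DE, as were 0 of all genes (0%), although p was under 0.05 before adjustment for 2 of the members and 947 of all genes. On day 7 it was under 0.05 for 1 member against normoxia and 4 against day 2, beside 1073 and 1394 of all 11538 genes. The libraries did not overlap for 3 of the 8 members on day 2 against normoxia, 3 on day 7 against normoxia and 5 on day 7 against day 2. For all genes the shares were 41.7%, 41.4% and 46.5%.

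Among the lists in XEN cells, 1 gene was DE. This was Mmp2, a gelatinase that degrades matrix, which was at 0.183 and 0.597 RPM in normoxia, 0.293 and 0.281 RPM on day 2 and 36.1 and 10.9 RPM on day 7. Like Fn1, it was higher in replicate 1 than in replicate 2 of day 7. It rose by 5.49 ± 0.65 against normoxia (adjusted p = 0.0483) and by 5.69 ± 0.65 against day 2 (adjusted p = 0.0748), on a scale where the low values depend on the pseudocount. It was 1 of 22 other mesenchymal genes in the table, whose median was 0.29 on day 7 against normoxia and -0.19 against day 2. Of 17 junction genes, 24 epithelial genes, 13 other transcription factors and 16 genes of TGF-beta signalling, 0 were DE in the 3 comparisons, and their medians on day 7 against normoxia were 0.16, -0.05, 0.09 and -0.03 beside -0.03 for all genes. Ctnna1, Ctnnb1 and Ctnnd1 had log2 fold changes of 0.02, -0.11 and -0.11 on day 7 against normoxia. Cdh3 was at 0.504 and 0.222 RPM in normoxia, 1.44 and 1.70 RPM on day 2 and 0.397 and 0.393 RPM on day 7, and day 2 lay above normoxia by 1.92 ± 0.49 on the log2 scale (adjusted p = 0.4002). Cdh6, another classical cadherin, was at 71.0 and 67.5 RPM on day 2 and 114 and 123 RPM on day 7 (0.78 ± 0.16, adjusted p = 0.361).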

How the data were processed

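The authors deposited TPM in a table per cell type, normalized per table. Per the labels, tools were cutadapt 2.4, STAR 2.7.5a (mm10), StringTie 2.0.6, featureCounts and edgeR 3.26.8, and the authors kept protein-coding genes that passed 0.4 CPM in 2 or more of 6 libraries. Their edgeR test was not run here. All 18 columns were mapped to samples.

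TPM times gene span (GENCODE release 21, introns included) fell on multiples of a common step, which gave whole reads (within 0.05) for 98.7% to 98.9% of values per library. Because that scaling presses long genes such as Cdh2, Zeb1 and Zeb2 to low values, log2(RPM + 0.1) of these reads was fitted with limma 3.58.1 (R 4.3.3, mean-variance trend, 6 libraries per cell type, no block), and deposited TPM served as an alternative. The fit was tested on simulated data. No test was made between cell types. Replicates are called biological and nothing more is said of them. Each p-value sets a difference between conditions against the spread of these libraries, moderated over all genes, and reaches no further than them.

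The genes and lists were chosen with earlier results of these data known. Each list is represented by its DE genes, up to 3 that rose and 3 that fell most per comparison, or else by up to 2 genes whose libraries did not overlap. Ctnna1, Ctnnb1, Ctnnd1 and Cdh3 were always included. For Cdh1 and Vim, the 5 genes with the highest Pearson r are named. Alternatives were pseudocounts of 0.02 and 0.5, a filter at 1 RPM, deposited TPM, median-ratio scaling, the replicate block, no trend, voom, only the 4 libraries compared, a stricter threshold (adjusted p of 0.05 and 2-fold) and each library left out. Figures were drawn with matplotlib 3.10.9.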

Additional observations from a re-analysis of the deposited data

Results flagged for a closer look

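In 4 cases all libraries of a condition moved 1 way in a cell type and the opposite way in another. None of these differences was tested, since the tables were normalized separately, and with 2 libraries against 2 such a separation is frequent in all genes of the tables. Snai1 on day 2 against normoxia was lower in TSCs (-0.53) and higher in XEN cells (0.71), a difference of -1.24 on the log2 scale. Cdh1 on day 7 against normoxia was higher in ESCs (0.19) and lower in TSCs (-0.75), a difference of 0.94. Cdh2 on day 7 against day 2 was higher in ESCs (0.61) and lower in XEN cells (-1.49), a difference of 2.10. Zeb2 in the same comparison was lower in ESCs (-0.42) and higher in XEN cells (0.63), a difference of -1.05. None of these 8 single differences was DE.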

How the results depend on the processing

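Fold changes of members turned direction in 67 of 504 values with each library left out, 6 of 30 without the 2 TSC libraries highest in fibroblast markers, 5 of 81 with deposited TPM, 2 of 84 at a pseudocount of 0.5 and 1 of 84 each with median-ratio scaling and voom. On day 7 against day 2 in TSCs, the 3 DE members became 1 (Snai1) with median-ratio scaling, without the mean-variance trend and at the stricter threshold, and 8 without the 2 libraries highest in fibroblast markers, an alternative chosen after seeing the data, which also gave 1 on day 7 against normoxia. The count on day 7 against day 2 ranged from 0 to 3 with each library left out. In XEN cells on day 7 against normoxia, the 1 DE member became 0 with deposited TPM, without the trend, with voom, with only the 4 libraries compared and at the stricter threshold, and ranged from 0 to 2 with each library left out. In XEN cells on day 7 against day 2, 0 became 1 (Fn1) with the replicate block (adjusted p = 0.0215) and with only the 4 libraries compared, and ranged from 0 to 1 with each library left out. In ESCs the 0 DE members ranged from 0 to 2 on day 2 against normoxia and from 0 to 1 on day 7 against day 2 with each library left out. The causes were not tested. A fit with a library left out has 1 library in a group, and the share of all genes that it called is not given here. Replicate numbers are shared between conditions, but nothing says that they mark a shared culture or day, and the correlation of the deviations of libraries with the same number ran from -0.50 to 0.31. The replicate block left every other count of DE members as reported.

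Each condition had 2 libraries, and the lowest read number of a member in a library was 45. A member that was not DE is not shown to be equal between conditions.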
